A study of Drosophila melanogaster with 4 samples.

Results

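Broad peaks on the X chromosome of Drosophila melanogaster embryos were described from 1 deposited peak list. A peak was taken when its sequence name was X, so that position alone chose the members: 727 of the 5171 peaks listed. The peaks of arms 2L, 3L and 3R, 3178 in all, served as the background (974, 974 and 1230). The list names 14 sequences, and those besides X and these 3 arms were not compared. Below, the other arms are these 3 alone. The series held 2 libraries of DNA recovered with a rabbit polyclonal antibody against the core shared by the Broad proteins, and 2 Input libraries of genomic DNA from the same kind of embryos. All 4 were made from y cn bw sp embryos of 0 to 8 h, per the sample labels, which give the sex as unknown. The strain's genotype lists oc[R3.2] and y[1], then bw[1], cn[1], sp[1], CG33964[R4.2], Gr22d[1] and Gr22b[1], then Rh6[1], GstD5[1], LysC[1], MstProx[1] and lab[R4.2]. The protocol text of the same samples describes a later egg-laying window than that stage. Because 1 list stands for the whole series, no value had a replicate error and no difference between X and the other arms was tested. Intervals cover the counting of peaks alone.

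Broad is the product of br (Broad-Complex), whose alternatively spliced transcripts give a set of proteins with a common BTB domain and different zinc fingers. It is best known as an early gene of the ecdysone response, which carries the hormone signal to later genes at moults and metamorphosis. The gene br itself lies on X in the release 6 gene table. Female flies carry a pair of X chromosomes and males a single one, which the male dosage compensation complex makes more active. Coordinates below are those of FlyBase release 5. Neither an annotation nor a sequence of that release was used, so each region is given by position and no peak is assigned to a gene.

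X carried fewer, narrower and lower-scoring Broad peaks than each of 2L, 3L and 3R. It had 33.5 peaks per Mb between its first and last peak, against 42.5 on 2L, 39.7 on 3L and 44.1 on 3R. The peaks of X covered 407 kb, which is 18.8 kb per Mb, against 27.7 kb per Mb on 2L, 25.7 on 3L and 29.6 on 3R. X over the 3 arms together, the ratio was 0.794 for peaks per Mb, 0.852 for mean width (560 and 658 bp) and 0.676 for the length covered. The shortfall in covered DNA was therefore larger than the shortfall in peaks.

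The deposited score was read as −log10 p, the strength of evidence for a peak over background, for reasons given with the processing. X peaks had a median score of 12.90 (quartiles 10.23 and 17.83), and those of the 3 arms a median of 13.97 (quartiles 10.68 and 20.12). The distributions overlapped over almost their whole range, and the gap widened towards the top. The 90th percentile was 24.4 on X and 29.5 on the 3 arms, and the 99th was 46.6 and 60.6. Scores of at least 20 were found at 130 X peaks (17.9%, 95% Wilson interval 15.3 to 20.8%), against 25.4% of the peaks on the 3 arms. For a score of 30 or more the shares were 39 peaks or 5.36% on X (3.95 to 7.25%) and 9.82% on the 3 arms, where single arms ran from 8.73 to 11.5%. At 50 or more X had 7 peaks (0.963%, 0.467 to 1.97%), against 2.11% on the 3 arms. Arm 3L, with 13 such peaks or 1.33%, lay inside the X interval.

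Ranked by score among the 3905 peaks of these 4 arms, X peaks thinned out towards the top. X made up 18.6% of all peaks, 14.4% of the first 1000, 12.6% of the first 500, 10.5% of the first 200 and 8 of the first 100. It held 4 of the first 50 and 0 of the first 20. The best X peak ranked 23rd, while the best peaks of 3R, 3L and 2L ranked 1st, 6th and 7th.

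The strongest X site was X:4099994-4101516, with a score of 67.63 and a width of 1523 bp. The best peaks of the other arms scored 89.12 on 2L, 92.46 on 3L and 210.73 on 3R. This X site stood alone: the nearest peak before it was 87.7 kb away, and the 300 kb after it (299.6 kb) held no peak. The second site, X:14643063-14644689, had a score of 64.45 and also stood alone, with 94.1 kb free before it and 87.6 kb after. The 500 kb windows that hold these sites had 16 and 4 peaks, against a median of 14 over all windows of X.

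The third site, X:17401091-17401683, scored 56.42 over 593 bp. It ranked 228th among X peaks by width, so it was the narrowest of the 10 highest-scoring peaks, at 95.1 score units per kb against 16.1 to 52.0 in the other 9. A stretch of 204 kb without a peak came before it and a second peak followed 2.78 kb later. The fourth, X:16530956-16532753 (55.21, 1798 bp), instead sat in a run of 4 peaks, with neighbours 422 bp before and 51 bp after it. The next were X:1934848-1936589 (53.42), X:18668071-18669087 (52.83) and X:7621672-7623140 (50.33), the last at the start of a run of 5. The first 10 closed with X:9447693-9449188 (47.61), X:20924198-20925455 (43.68) and X:547969-550540 (41.48). Of these 10 peaks, 3 had no other peak within 5 kb, against 23.9% of all X peaks. In the same set, 4 bordered a stretch of more than 100 kb without a peak. Such stretches made up 64 of the 726 between neighbouring X peaks (8.82%). The share of all X peaks bordering such a stretch was not counted. The count of 4 is therefore not read as a trait of the strongest sites.

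**Figure D1:**
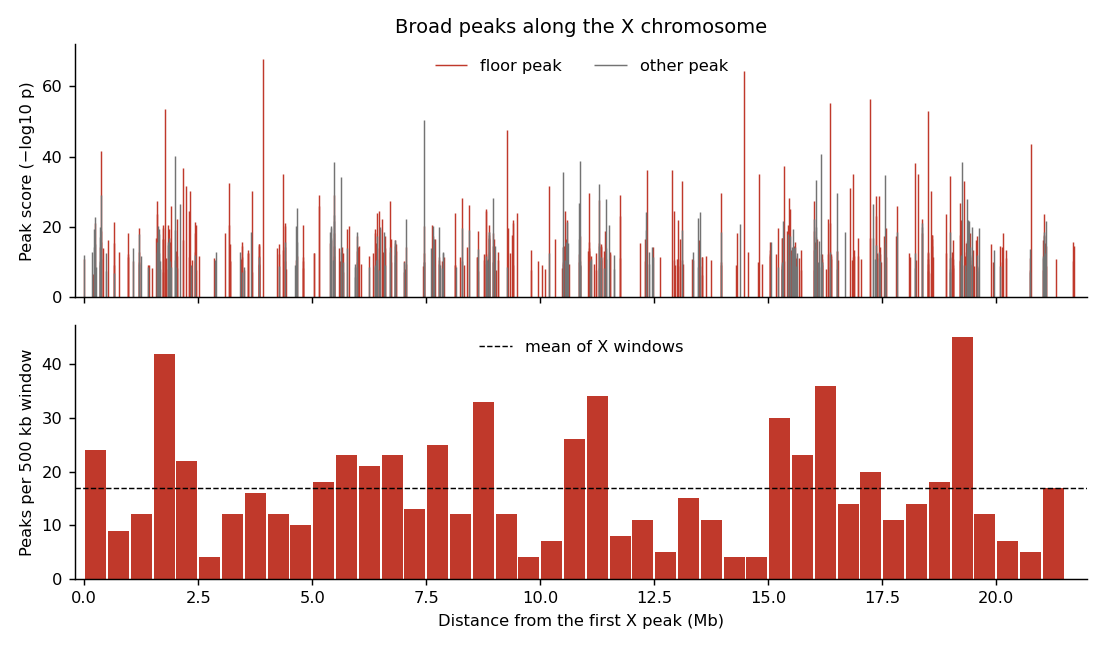
Broad peaks along X by distance from the first X peak in Mb: above, the score of each peak as a line (red, floor peaks; grey, other peaks, drawn last where lines overlap), and below, the number of peaks in each 500 kb window with the mean of 16.8 as a dashed line. The highest scores, 67.63 and 64.45, belong to single peaks with no other peak within 5 kb, and window counts run from 4 to 45.

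Width separated X from the other arms mainly in its upper range. The median width was 415 bp on X (quartiles 275 and 677 bp) and 452 bp on the 3 arms (282 and 827 bp). Widths of 1000 bp or more were reached by 89 X peaks (12.2%, 10.1 to 14.8%), against 19.1% on the 3 arms. Of peaks 2000 bp or wider, X had 11 (1.51%, 0.847 to 2.69%) and the 3 arms 3.15%, with 3L at 2.36% inside the X interval. The widest X peak, X:547969-550540, measured 2572 bp, while the widest of 2L, 3L and 3R measured 4762, 4704 and 5254 bp.

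The 10 widest X peaks spanned 2073 to 2572 bp and scored from 19.93 to 41.48. After the first came X:16685192-16687533 (2342 bp, score 29.80), X:11029824-11032158 (2335 bp, 26.96), X:18445231-18447458 (2228 bp, 35.14) and X:2346694-2348863 (2170 bp, 36.69). The others were X:19373229-19375363 (2135 bp), X:7950627-7952735 (2109 bp), X:15626591-15628691 (2101 bp), X:11465845-11467929 (2085 bp) and X:19415123-19417195 (2073 bp). Among them X:7950627-7952735 had the lowest score, 19.93, which ranked 131st on X. Only 1 of the 10 widest, X:547969-550540, was also among the 10 highest by score.

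Width and score went together on X with a Spearman rho of 0.718 across its 727 peaks, and on 2L, 3L and 3R with 0.789, 0.771 and 0.798. The relation is partly built in, because 1 peak call sets both values. At equal score, weak and middling peaks were about as wide on X as elsewhere. Between scores of 10 and 15 the median width was 358 bp on X (290 peaks) and 359 bp on the 3 arms (1175 peaks), and between 15 and 20 it was 620.5 and 610.5 bp. At scores of 30 to 50 the X peaks were narrower, with 1248.5 bp (32 peaks) against 1408 bp (245 peaks), although 3L, at 1309.5 bp, came close. The range of 50 or more had no upper limit: scores ended at 67.63 on X and at 210.73 on the 3 arms. Its medians, 1523 bp for the 7 X peaks and 1878 bp for 67 peaks of the 3 arms, are therefore not at equal score. The widest of these 7 measured 1798 bp, below the median of each of the 3 arms (2132, 1845 and 1847 bp).

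**Figure D2:**
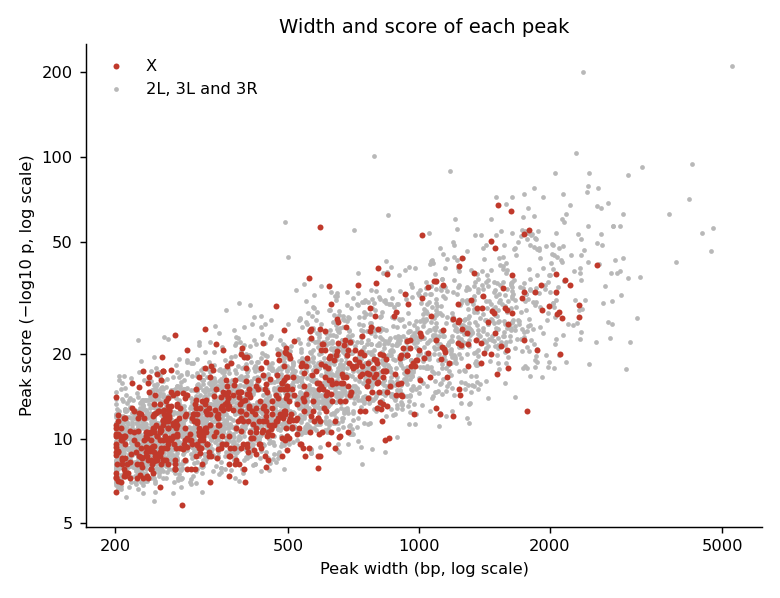
Score (−log10 p) against width (bp) of every peak, both on log scales, for X (red, 727 peaks) and for arms 2L, 3L and 3R (grey, 3178 peaks). X peaks lie within the grey cloud at low and middle scores and end at 2572 bp and 67.63, while the grey points reach 5254 bp and 210.73.

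Occupancy along X was uneven between windows of 500 kb. In 43 windows of 500 kb from the first peak on, the number of X peaks averaged 16.8 ± 10.3 (SD over windows), with a lowest of 4, a median of 14 and a highest of 45. The 3 arms together averaged 21.2 ± 11.8 (149 windows, lowest 0, median 20, highest 87). X over 2L, 3L and 3R, the ratio of these means was 0.782, 0.849 and 0.765. The means differed by 4.32 peaks per window. The SD describes single windows and is not an error of this difference, which was not tested. Windows with 5 peaks or fewer made up 6 of 43 on X (14.0%) and 7 of 149 on the 3 arms (4.70%). By arm this share was 2.22, 8.16 and 3.64% on 2L, 3L and 3R. Windows with 30 or more made up 6 of 43 (14.0%) and 29 of 149 (19.5%). Here 2L, at 13.3%, was close to X, while 3L and 3R had 20.4 and 23.6%.

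The fullest X window, X:19172894-19672893, held 45 peaks over 23.4 kb of covered DNA, with a median score of 12.01. It was followed by X:1672894-2172893 with 42 peaks and by X:16172894-16672893 with 36. The window at X:1672894-2172893 covered the most DNA, 24.4 kb, and had a higher median score, 15.34. At the other end, 4 windows tied at 4 peaks: X:2672894-3172893, X:9672894-10172893, X:14172894-14672893 and X:14672894-15172893. The last pair adjoin, and their 1 Mb held 8 peaks in all, among them the second strongest of the chromosome. The window that followed them, X:15172894-15672893, held 30 peaks.

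The counts of neighbouring X windows had a Spearman rho of 0.173 (42 pairs, each window sharing a border with the next). Divided into 4 segments of equal length, the chromosome held 173, 200, 179 and 175 peaks in order of position. Median scores of these segments were 13.61, 12.63, 12.56 and 12.69. Peaks with a score of 30 or more numbered 10, 6, 10 and 13. Peak numbers were thus similar in the 4 segments. The median score of the first segment equalled that of all 2L peaks (13.61) and was below those of 3L and 3R (14.05 and 14.11). Segments of the other arms were not computed. The 39 X peaks with a score of 30 or more stood a median of 361 kb apart, start to start. Their smallest distance was 45.8 kb and their largest 1828 kb.

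**Figure D3:**
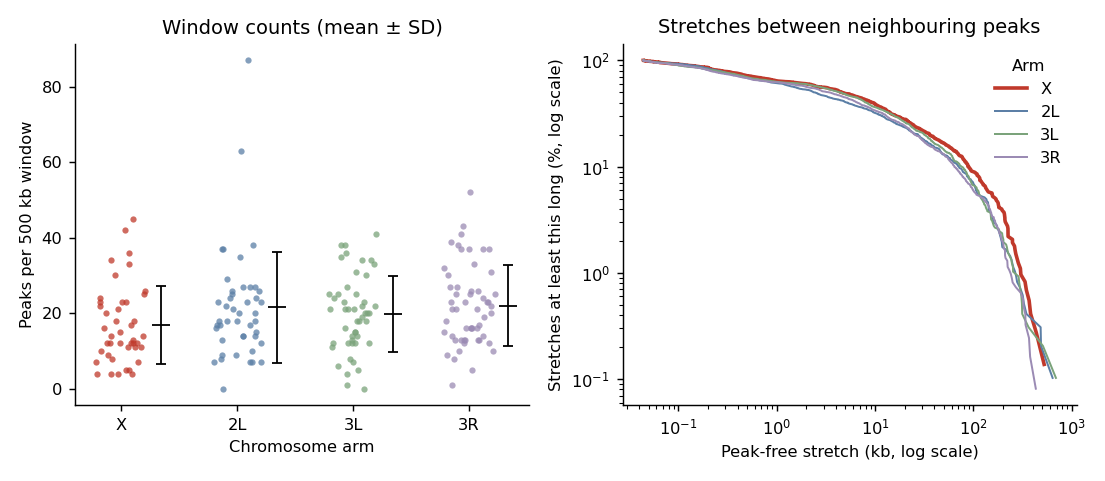
Left, peaks per 500 kb window on X, 2L, 3L and 3R, each point a window and each bar the mean ± SD over windows. Right, the share of peak-free stretches at least as long as the length on the axis (both axes log), where X lies above the other arms at about 100 kb (8.82% of X stretches, against 5.94 to 6.78% on the 3 arms).

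More of X than of the other arms lay in long stretches without a peak. The median distance between neighbouring peaks was 4605 bp on X, against 2408 bp on 2L, 4405 bp on 3L and 3403 bp on 3R. Peak-free stretches of more than 100 kb numbered 64 on X and took up 12.6 Mb, or 58.1% of its length between first and last peak. On 2L, 3L and 3R they took up 53.4, 48.5 and 48.3%. Per Mb of span there were 2.95 on X and 2.69 on the 3 arms, an order that turned round to 2.84 and 3.15 with the top 50% of the listed peaks by score, while their share of the span stayed higher on X (72.8%, against 62.9% on the 3 arms). Those of more than 200 kb numbered 27 on X and 16, 20 and 23 on 2L, 3L and 3R, although X was the shortest of the 4 arms by span (21.7 Mb, against 22.9, 24.5 and 27.9 Mb).

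The longest empty stretch of X, X:20382621-20905012, measured 522 kb. It was shorter than the longest of 2L (637 kb) and 3L (688 kb) and longer than that of 3R (430 kb). The next were X:11923105-12356991 (434 kb), X:21476159-21856511 (380 kb), X:7232094-7599530 (367 kb) and X:2684419-3029127 (345 kb). These 5 made up 2.05 Mb, or 9.44% of the span. The first and the third lie in the last 2 Mb of the covered span, where the strong peak X:20924198-20925455 stood between 2 empty stretches, the 522 kb one shortly before it and one of 264 kb directly after it. Of the 10 peaks bordering the 5 longest stretches, 9 scored between 7.33 and 15.44 and 1 scored 23.21. All X peaks had a median score of 12.90 (quartiles 10.23 and 17.83).

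Runs of X peaks held fewer peaks on average than those of the other arms. With neighbours up to 5 kb apart chained together, the 727 peaks formed 355 runs with 2.05 peaks each on average, against 2.09 on 3L, 2.24 on 3R and 2.47 on 2L, where a single run held 72 peaks. Single peaks made up 174 of the 727 (23.9%), against 18.0, 22.7 and 20.2% on 2L, 3L and 3R. Runs of 5 or more numbered 25 and held 146 X peaks (20.1%), against 28.5% of the peaks on the 3 arms, with 32.9, 24.8 and 28.0% on 2L, 3L and 3R. The run of 72 peaks raises the mean and share of 2L and the share of the 3 arms together. These were not computed without it. No X run exceeded 8 peaks, while runs of 9 or more numbered 4, 3 and 5 on 2L, 3L and 3R.

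By number of peaks, 2 X runs led with 8 each. The first, X:9042712-9059008, put them into 16.3 kb. Their scores in order of position were 16.98, 10.05, 18.55, 17.76, 16.59, 13.01, 20.63 and 18.55, so no single peak stood out. The other, X:6989532-7004292, spanned 14.8 kb, with scores between 10.11 and 16.32. The run X:1755503-1774558 held 7 peaks over 19.1 kb, the greatest length of the 25 runs of 5 or more, with its highest score of 27.30 at its far end. The run X:19530780-19539737 began with its highest score, 27.90. In X:16334890-16343686 a first peak of 40.88 stood ahead of 6 small peaks scoring 8.69 to 12.21. Both patterns, even runs and runs with a strong peak beside weak ones, were therefore present. Among the 25 runs the highest score was at an end in 13, and 5 runs reached a score of 30.

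Isolated and grouped peaks of X had close median scores. Single X peaks had a median score of 12.96 and a median width of 446 bp, against 12.69 and 400.5 bp for X peaks in runs of 5 or more. On the other arms single peaks were the stronger ones: their median scores were 15.55, 15.35 and 16.29 on 2L, 3L and 3R, against 12.90, 13.88 and 13.20 in runs of 5 or more. The difference, single minus grouped, was 0.27 on X and 2.65, 1.47 and 3.09 on 2L, 3L and 3R. X thus fell further below the 3 arms together in median score among single peaks (12.96, against 15.51). The shortfall was smaller within runs of 5 or more (12.69, against 13.26). Scores of 30 or more were reached by 8.62% of single X peaks and 3.42% of those in runs of 5 or more, and on the 3 arms by 14.6 and 7.28%.

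Most X peaks had the score that a single background mean gives. A Poisson mean of 49.75 overlapping fragments reproduced, to 2 decimals, the scores of 475 X peaks (65.3%, 61.8 to 68.7%), against 13.0% of the peaks on the 3 arms. Such peaks are called floor peaks here, since MACS is known to score a peak against the genome-wide mean unless the local mean is higher. A score can also match by accident, and the number of such matches in these data was not estimated. They would weigh more on the 3 arms, where floor peaks are few. On 2L, 3L and 3R the floor shares were 17.8, 11.6 and 10.3%. By 1 Mb bins with at least 10 peaks, all 22 bins of X had a floor share of 50.0% or more, with a median of 64.8% and a highest of 84.0%. Of 73 such bins on the 3 arms 1 reached 50%, at 53.2% on 2L (21 to 22 Mb), and the median was 10.5%. The next 2L bin, 22 to 23 Mb, had 48.0% (12 of 25 peaks). The limit of 10 peaks left out bins near the end of 3L with high floor shares. There, 6 of 8 peaks at 23 to 24 Mb and 3 of 3 at 24 to 25 Mb were floor peaks. It also left out 2L at 17 to 18 Mb, with 2 of 9. High floor shares were thus not confined to X.

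Within X the floor share ran between 63.6 and 66.6% in the score ranges below 30. It was 68.8% from 30 to 50 (22 of 32 peaks) and 85.7% at 50 or more (6 of 7 peaks), and 9 of the 10 highest X peaks were floor peaks. Along the chromosome the 4 segments had 63.6, 64.5, 65.9 and 67.4%. Single X peaks had 73.6%, those in runs of 3 or 4 had 59.8% and those in runs of 5 or more 63.7%, where the 3 arms had 20.8, 10.4 and 11.6%. The arms differed here: single peaks had 17.7, 24.9 and 19.4% on 2L, 3L and 3R. Peaks in runs of 5 or more had 23.4, 7.02 and 3.78%. Every one of the 25 X runs of 5 or more held at least 1 floor peak, and 4 consisted of floor peaks alone. These counts add little to the share of 63.7% in such runs, and they were not made on the 3 arms.

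For floor peaks the score can be turned back into a pileup, the number of overlapping fragments at the peak. The 475 floor peaks of X had a median pileup of 109 (quartiles 101 and 121), or 2.19-fold the background mean, and the 413 of the 3 arms a median of 110 (quartiles 101 and 126), or 2.21-fold. The strongest X site, X:4099994-4101516, reached 216 fragments or 4.34-fold, and the weakest X floor peak 88 fragments or 1.77-fold. On 2L, 3L and 3R the highest floor pileups were 248, 207 and 398 fragments. Arm by arm, the median floor pileup was 109 on 2L and 112 on both 3L and 3R. Floor peaks are a minority on these arms, so their pileups do not stand for all peaks there. Pileups may be off by 1, depending on how the caller counts the tail, and a score that matched by accident gives no true pileup.

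The number of fragments that X contributed to the ChIP and Input libraries, and the share of males among the embryos, were not measured here. Fewer copies of X DNA, weaker binding and a different local background cannot be told apart from a list of calls. Their part in the lower number, width and score of X peaks was not tested.

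**Figure D4:**
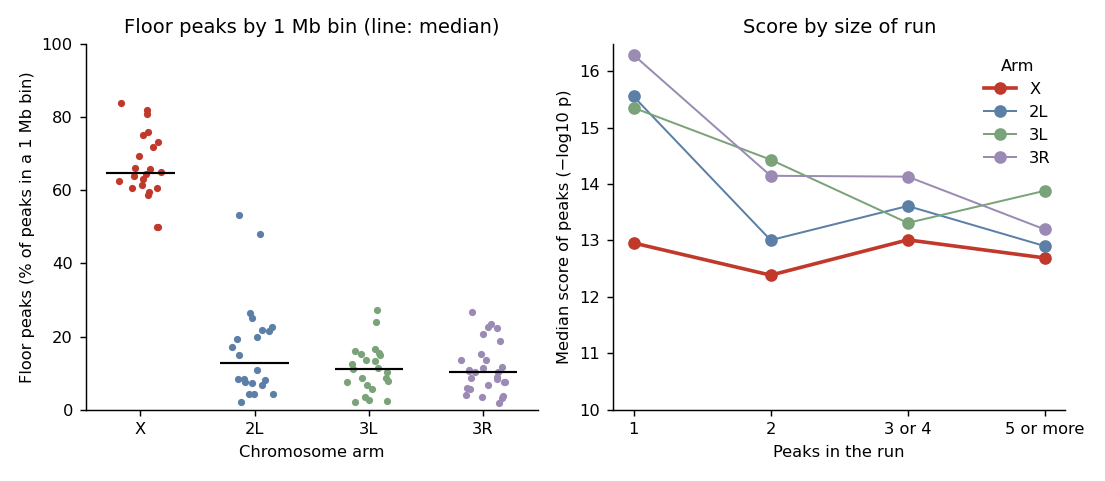
Left, floor peaks as a percentage of the peaks in each 1 Mb bin with at least 10 peaks, by arm, with the median as a line; the X bins span 50.0 to 84.0% and the median of X is 64.8%. Right, the median score (−log10 p, axis starting at 10) of peaks by the number of peaks in their run, where single peaks score 12.96 on X and 15.35 to 16.29 on 3L, 2L and 3R.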

How the data were processed

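ChIP and Input libraries (2 each) of embryos had 1 deposited peak list. The submitters' processing notes name CASAVA 1.7.0.2 and 1.7.0.3, BWA, MACS2 and build BDGP5. Per the file headers, coordinates follow FlyBase release 5. Not given in the sources used here are the calling settings and the pooling of libraries, and depth per library is unknown. The authors deposited a start, an end and an unnamed score per peak. It was read as −log10 p because 1150 of 5171 deposited scores (22.2%) matched to 2 decimals the −log10 tail probability that a Poisson count with mean 49.75 is above some whole pileup. That mean was found by a scan from 10 to 120. The next best mean away from it, 101.49, matched 354 scores. The scan, runs, gaps and windows were checked on simulated lists with known answers. The other scores were taken to have the same unit, which was not tested.

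Windows began at the first peak of an arm, complete windows were kept, and peaks were counted by midpoint. Wilson intervals are at 95%. Members, thresholds and descriptions were chosen with earlier results of these data known. Named regions are the 10 highest and 10 widest X peaks, the 5 longest runs and empty stretches, and the fullest and emptiest windows, plus extremes of other arms. With no sequence or annotation of release 5 at hand, no gene or sequence was assigned to a peak. No test was run. Alternatives changed the window size, peaks kept, joining of neighbours, arm ends, run gap and score tolerance. Software was pandas 2.3.3, matplotlib 3.10.9, scipy 1.17.1, numpy 2.4.6 and Python 3.11.15.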

Additional observations from a re-analysis of the deposited data

How the results depend on the processing

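The ratio of peaks per window, X over 2L, 3L and 3R, was 0.796 and lay between 0.790 and 0.821 in 5 alternatives (windows of 250 kb or 1 Mb, peaks under 1 kb apart joined, 2 Mb left off each arm end, and, chosen after seeing the data, without the 2 densest runs of 2L). It was 0.681 with the top 50% of the listed peaks by score and 0.598 with the top 25%. Joining peaks under 1 kb apart moved the ratio of median scores from 0.923 to 0.850 and that of median widths from 0.918 to 0.799. The cause of these moves was not tested. X runs of 5 or more numbered 9 at gaps of at most 2 kb, 43 at 10 kb and 2 with the top 50%, by construction, against 57, 204 and 19 on the 3 arms. The floor share of X lay between 64.4 and 68.0% in 4 alternatives. Stretches of over 100 kb numbered 64 on X and 203 on the 3 arms, and with the top 50% 61 and 237. Per Mb of span, these were 2.95 on X and 2.69 on the 3 arms, and with the top 50% 2.84 and 3.15, so that the order turned round; the cause was not tested. The ratios of peaks per window, median score and median width stayed below 1 in the alternatives run. No paired analysis was possible because 1 list stands for all libraries, which also means that no replicate could be left out. Depth limits scores, and the depth of X was not measured.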
